A study of Homo sapiens with 12 samples.

Results

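The genes described here are the clustered linker and core histone genes, 60 of the 18417 genes measured in SZ95 sebocytes, an immortalised human line derived from the sebaceous gland. They were taken as every probe set with exactly 1 gene symbol, and the probe set with the highest mean where a gene had several, whose symbol has the form H1-, H2AC, H2BC, H3C or H4C followed by a number. This gave 9 H1, 14 H2A, 16 H2B, 8 H3 and 13 H4 genes, of which 49 lie on chromosome 6, 7 on chromosome 1, 2 on chromosome 3 and 2 on chromosome 12. The label of a cluster does not cover all of them, since H1-8 and H1-10 on chromosome 3 and H1-7 and H4C16 on chromosome 12 lie apart from the chromosome 6 genes. A further 12 genes with such symbols in RefSeq are not members, since they are read by probe sets they share with other genes alone.

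Cells received an siRNA against OLR1 or a scramble siRNA by lipofection in Sebomed medium, and 24 h later 25 µg/ml of UV-oxidised PAPC or no treatment. PAPC is an arachidonic acid phosphatidylcholine, its ultraviolet oxidation yields a mixture of oxidised phospholipids (UV-PAPC), and OLR1 encodes LOX-1, a scavenger receptor for oxidised low-density lipoprotein. The 4 groups, all of the same line and all transfected, were OLR1 siRNA with UV-PAPC, OLR1 siRNA untreated, scramble siRNA with UV-PAPC and scramble siRNA untreated, with 3 whole-transcript Affymetrix arrays each. The labels name no vehicle, unoxidised lipid or untransfected control and no second OLR1 siRNA, so the effects of oxidation, lipid and vehicle cannot be told apart.

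Histones are the proteins around which DNA is wound. H2A, H2B, H3 and H4 form the nucleosome core, and linker histone H1 binds the DNA where it enters and leaves the core. Cells make most of their histones while they copy their DNA, from many near-identical genes whose transcripts end in a stem-loop in place of a poly(A) tail. In a sebaceous gland dividing cells lie at the rim and cells stop dividing as they fill with lipid. Most of these transcripts are known as a readout of S phase, the stage of DNA copying.

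The promoters of 5 of these genes are shown because their values carry the comparisons that follow: H1-3 and H2BC14, which fell with UV-PAPC under both siRNAs, H3C1 and H4C4, which fell with OLR1 siRNA and did not pass with scramble siRNA, and H1-6, the testis linker histone, which did not pass in any comparison. Each is the stretch of 250 bases before the RefSeq start on GRCh38.p14, 5′ to 3′ on the strand of the gene. Capitals mark CCAAT, the site of NF-Y, TATAAA, the TATA box, and the octamer ATTTGCAT, bound by OCT1 in H2B promoters, each on either strand. H1-3 is chr6:26234988-26235237 on the minus strand, H2BC14 chr6:27814772-27815021 on the plus strand, H3C1 chr6:26020201-26020450 on the plus strand, H4C4 chr6:26189113-26189362 on the minus strand and H1-6 chr6:26108136-26108385 on the minus strand.
H1-3: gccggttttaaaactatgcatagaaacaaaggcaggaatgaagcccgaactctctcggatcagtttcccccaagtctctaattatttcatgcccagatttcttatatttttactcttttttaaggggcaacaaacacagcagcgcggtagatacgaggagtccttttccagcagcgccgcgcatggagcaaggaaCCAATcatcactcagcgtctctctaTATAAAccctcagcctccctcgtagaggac
H2BC14: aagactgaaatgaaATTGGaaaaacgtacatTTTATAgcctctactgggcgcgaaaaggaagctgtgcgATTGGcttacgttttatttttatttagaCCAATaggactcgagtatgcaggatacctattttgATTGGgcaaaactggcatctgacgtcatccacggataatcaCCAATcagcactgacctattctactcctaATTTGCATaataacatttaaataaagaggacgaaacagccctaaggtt
H3C1: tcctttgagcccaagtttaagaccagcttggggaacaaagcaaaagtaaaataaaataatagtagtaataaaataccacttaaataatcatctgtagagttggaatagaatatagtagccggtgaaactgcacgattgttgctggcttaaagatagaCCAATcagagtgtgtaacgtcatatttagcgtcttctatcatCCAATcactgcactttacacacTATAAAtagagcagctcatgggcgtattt
H4C4: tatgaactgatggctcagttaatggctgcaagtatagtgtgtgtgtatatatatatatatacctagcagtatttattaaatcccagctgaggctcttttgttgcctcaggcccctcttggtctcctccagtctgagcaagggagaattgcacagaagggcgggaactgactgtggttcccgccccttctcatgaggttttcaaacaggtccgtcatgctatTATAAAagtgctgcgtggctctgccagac
H1-6: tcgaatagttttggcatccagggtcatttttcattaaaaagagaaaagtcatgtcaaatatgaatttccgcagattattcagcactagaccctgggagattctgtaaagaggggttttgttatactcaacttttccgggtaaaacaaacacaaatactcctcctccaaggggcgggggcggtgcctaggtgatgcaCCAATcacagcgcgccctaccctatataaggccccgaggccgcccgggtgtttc

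In H1-3 a CCAAT at base 196 stood ahead of a TATAAA at base 221, and in H3C1 the TATAAA began at base 222 behind 2 CCAAT matches. H4C4 held the TATAAA at base 222 and no CCAAT in the full window, and H1-6 a CCAAT at base 197 and no TATAAA. H2BC14 held the octamer at base 203 and 5 CCAAT matches, and its TATAAA match, at base 32, was on the other strand. That match faces H2AC14, the H2A gene that starts 245 bases away on the opposite strand.

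Over the RefSeq windows of 300 bases, 250 before and 50 after the start, 55 members had a sequence. CCAAT was found in 46 of these 55 (83.6%) and in 34.6% of all 35116 windows, TATAAA in 35 (63.6%) and in 11.5%, and ATTTGCAT in 23 (41.8%) and in 1.77%. The octamer was held by 10 of 13 H2A and 13 of 16 H2B windows and by 0 of 9 H1, 0 of 6 H3 and 0 of 11 H4 windows. CCAAT was in all 13 H2A, 16 H2B and 6 H3 windows, in 8 of 9 H1 windows and in 3 of 11 H4 windows. Among the members were 9 head-to-head pairs of an H2A and an H2B gene with starts 215 to 248 bases apart, whose windows overlap, so that each pair shares matches. The motifs were also counted apart for members that fell with UV-PAPC in OLR1 siRNA cells and for members that did not pass. CCAAT was in 80.0% of the 20 with a window against 85.7% of the other 35, TATAAA in 60.0% against 65.7% and ATTTGCAT in 40.0% against 42.9%. A match describes these letters and is not a measured site.

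Signals are on the log2 scale, the medians of the arrays lay between 5.73 and 5.83, and the number of arrays limits the precision. OLR1, the targeted gene, lay between 4.33 and 4.66 on the 6 OLR1 siRNA arrays and between 5.35 and 6.19 on the 6 scramble arrays, with no overlap. The labelled cell type was checked on 10 sebocyte markers. The keratin genes KRT7, KRT8, KRT18 and KRT19 lay above the 99th percentile of signal, SCD at percentile 98.0 and FADS2 at 96.2, whereas the melanocortin receptor MC5R lay at 17.2. Some defining markers of other cells were low. The leukocyte gene PTPRC lay at percentile 3.9, the fibroblast genes DCN and LUM at 1.96 and 2.63 and the melanocyte gene MLANA at 5.9. DCN and LUM do not stand for their list, since the median over the 5 fibroblast markers lay between 4.48 and 4.96 on the arrays. The endothelial gene CDH5 lay high, at percentile 80.8, while PECAM1 and VWF were at 14.9 and 22.9.

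The histone genes were first read array by array. For each array the deviation of every member from its own mean over the 12 arrays was taken, and the median of the 60 deviations is given on the log2 scale. It was -0.08, -0.11 and 0.06 with OLR1 siRNA and UV-PAPC, 0.21, 0.22 and 0.30 with OLR1 siRNA untreated, -0.27, -0.20 and -0.02 with scramble siRNA and UV-PAPC, and -0.05, 0.00 and 0.01 with scramble siRNA untreated. The 3 untreated OLR1 siRNA arrays were thus the highest of all 12. The array numbered 3 had the highest median of its group in all 4 groups. It was the highest of its group for 50 of 60 members with OLR1 siRNA and UV-PAPC, 34 with OLR1 siRNA untreated, 53 with scramble siRNA and UV-PAPC and 29 with scramble siRNA untreated. In OLR1 siRNA cells the UV-PAPC and untreated arrays did not overlap, and in scramble siRNA cells the third UV-PAPC array (-0.02) lay above the first untreated array (-0.05). The median over all genes lay within 0.01 of zero on every array.

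**Figure D1:**
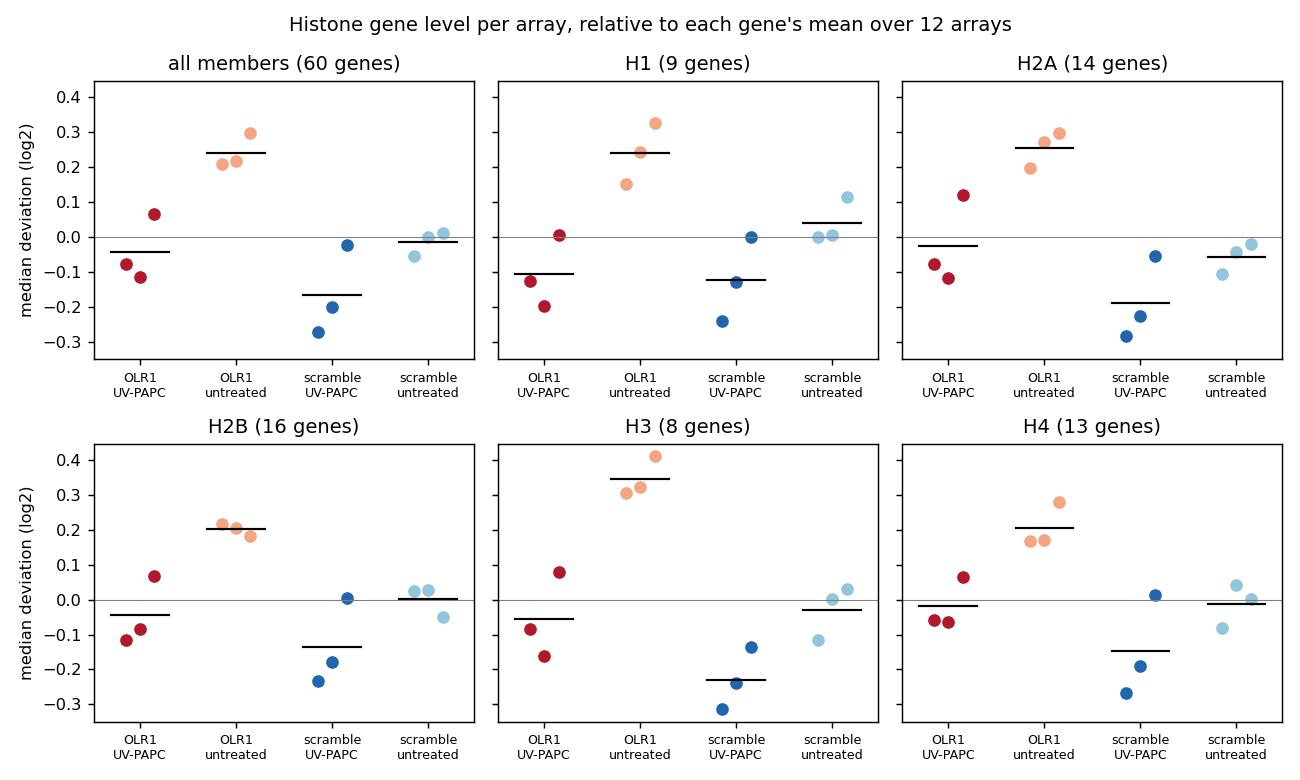
Median deviation of histone genes from their mean over 12 arrays, in log2 units, for each array (points) with the group mean (lines), for all 60 members and for each class. The 3 untreated OLR1 siRNA arrays lie highest in every class, and the third UV-PAPC array is the highest of its group in all 6 panels for both siRNAs.

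The mean of the untreated OLR1 siRNA group was the highest of the 4 group means in 48 of 60 members, and the mean of the scramble siRNA group with UV-PAPC the lowest in 41. Signal differed widely between probe sets, from a mean log2 of 3.55 for H1-6 to 11.65 for H4C3. Probe sets differ in how strongly they bind, so these signals do not rank the transcripts. Within the classes the highest and lowest mean signals were those of H1-4 and H1-6, H2AC20 and H2AC1, H2BC14 and H2BC3, H3C11 and H3C3, and H4C3 and H4C16. H4C14 and H4C15, H4 genes on chromosome 1, had the same value on every array and are 1 measurement. Many other core histone genes are also near-identical within a class, so that their probe sets may read more than the gene they are named for. This leaves such single genes uncertain, and how alike the members are was not measured here.

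The first comparison set UV-PAPC against no treatment where OLR1 siRNA had been given. With UV-PAPC 22 of 60 members fell and 0 rose at a limma adjusted p under 0.05, where 3.25% of all genes fell. The fall was found in every class, in 4 of 9 H1, 4 of 14 H2A, 4 of 16 H2B, 6 of 8 H3 and 4 of 13 H4 genes. H1-3, the linker histone H1.3, fell most, 2.14-fold (log2 difference -1.10, SE 0.08, limma adjusted p = 1.94e-07), and by size of fall H2BC14, H3C12 and H3C1 came next. Over all members the median log2 difference was -0.26, against -0.01 over all genes, and 52 of 60 were negative. All 3 UV-PAPC arrays lay below all 3 untreated arrays in 36 members, where this held for 12.8% of all genes. In these bulk samples fewer cells in S phase and less histone RNA per cell cannot be told apart.

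The same comparison in cells with scramble siRNA gave 8 falls and 0 rises among the 60 members, where 4.64% of all genes fell. The members that fell were H1-3, H1-5, H2BC14, H3C12, H2AC8, H2BC21, H4C14 and H4C15. The median log2 difference was -0.14, against -0.00 over all genes, and 51 members were negative. The UV-PAPC arrays lay below the untreated arrays in 16 members, where this held for 14% of all genes. Of the members that fell, 7 did so under both siRNAs. This is 7 of the 22 with OLR1 siRNA and 7 of the 8 with scramble siRNA. The 7 include H4C14 and H4C15, which had the same value on every array. How many of all genes fell under both siRNAs was not counted, so this overlap has no background to be set against. The responses share no arrays, but their p-values rest on a variance pooled over all 12 arrays. The count with scramble siRNA was 4 without the second untreated or the first UV-PAPC scramble array or the second untreated OLR1 siRNA array, and 5 without the third untreated scramble array, the first untreated OLR1 siRNA array or the first or the third OLR1 siRNA array with UV-PAPC. Without the third scramble UV-PAPC array it was 10, and with OLR1 siRNA the count was 14 without the second UV-PAPC array and 26 without the third.

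**Figure D2:**
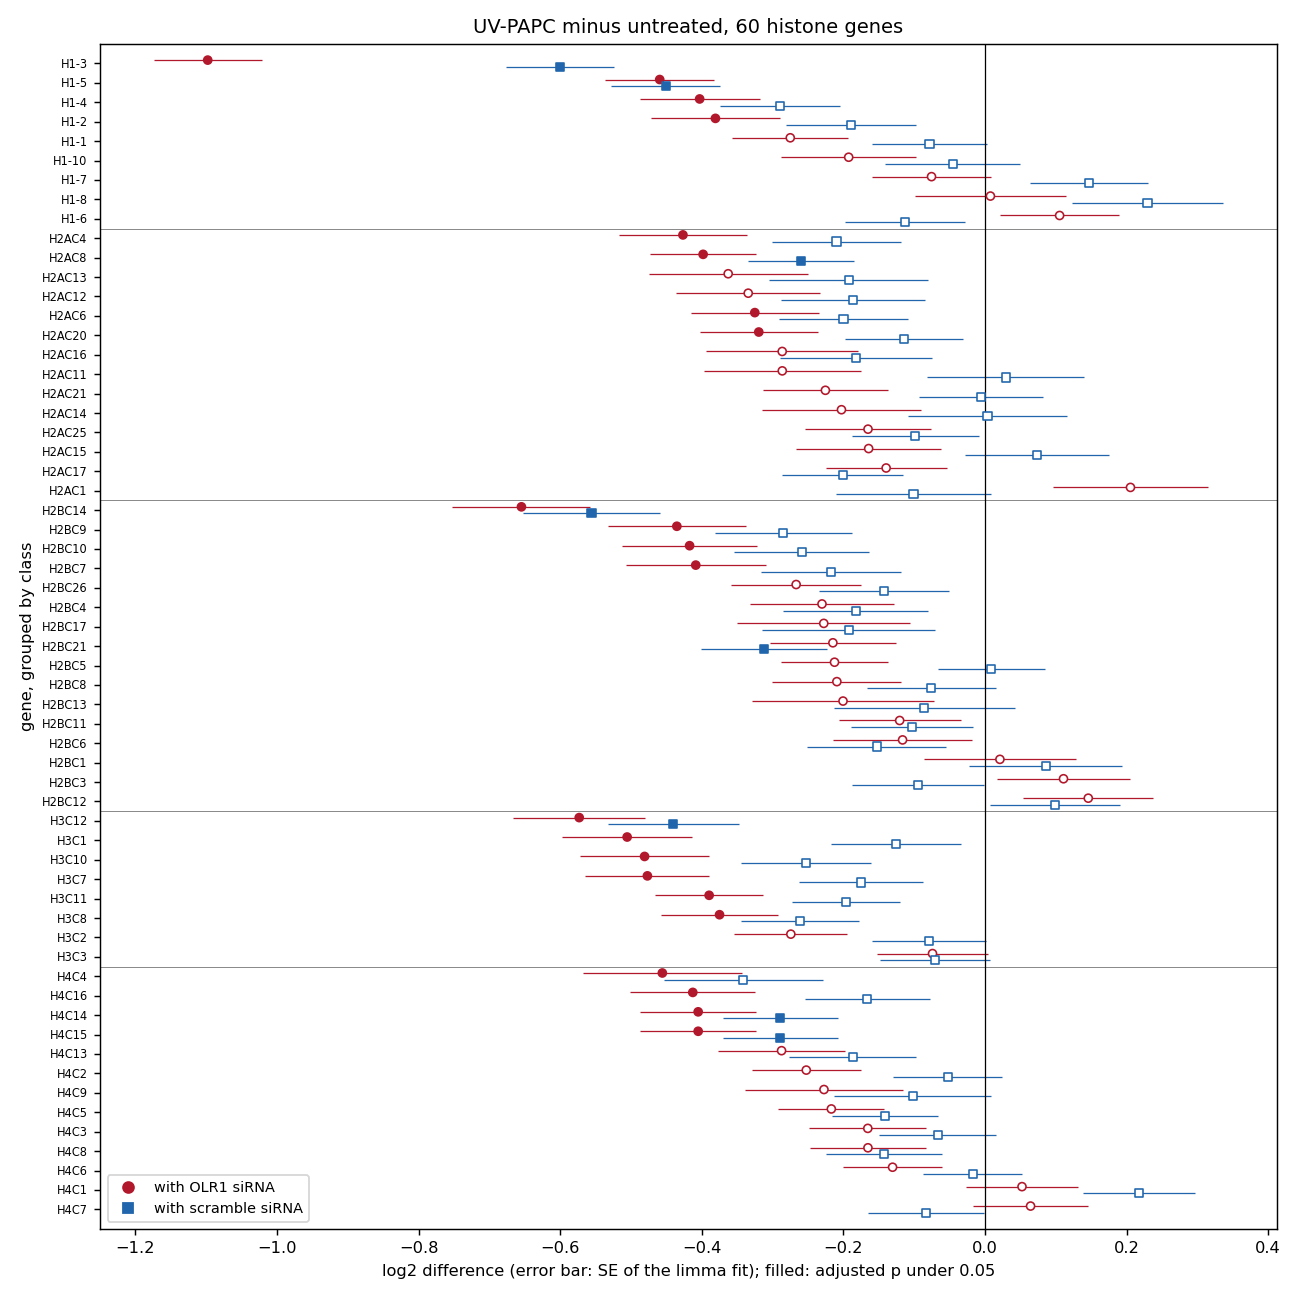
Log2 difference, UV-PAPC minus untreated, of each of 60 histone genes with OLR1 siRNA (red circles) and with scramble siRNA (blue squares). Bars are the standard error of the limma fit and filled points have an adjusted p under 0.05, and 22 red and 8 blue points are filled, all of them left of zero.

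Of the H1 genes, H1-3 had log2 signals of 7.77, 7.55 and 7.82 with UV-PAPC and 8.74, 8.89 and 8.80 untreated in OLR1 siRNA cells. In scramble siRNA cells it had 7.87, 7.93 and 7.89 with UV-PAPC and 8.53, 8.45 and 8.52 untreated. Every UV-PAPC array of H1-3 lay below every untreated array, and the untreated OLR1 siRNA arrays were the highest. With scramble siRNA H1-3 fell 1.52-fold (log2 difference -0.60, SE 0.08, limma adjusted p = 0.000111). H1-5, the linker histone H1.5, had 9.57, 9.36 and 9.62 with UV-PAPC and 9.96, 9.94 and 10.03 untreated with OLR1 siRNA, and 9.10, 9.19 and 9.24 with UV-PAPC and 9.64, 9.55 and 9.70 untreated with scramble siRNA. Within each siRNA its arrays did not overlap, and the log2 differences were -0.46 (adjusted p = 0.00129) with OLR1 siRNA and -0.45 (adjusted p = 0.00147) with scramble siRNA. H1-4 and H1-2, further linker histones of dividing cells, fell with OLR1 siRNA (-0.40 and -0.38, adjusted p = 0.00689 and 0.0179) and had -0.29 and -0.19 with scramble siRNA (adjusted p = 0.0501 and 0.274). H1-1 was at -0.28 (adjusted p = 0.0564) with OLR1 siRNA.

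The linker genes with other roles did not pass under either siRNA. H1-8, the oocyte form, had a log2 difference of 0.01 with OLR1 siRNA and 0.23 with scramble siRNA, where it was the highest of all members (adjusted p = 0.248). H1-7, a form of spermatids, was at -0.08 and 0.15 and H1-6, the testis form, at 0.11 and -0.11. H1-10, a linker histone that is made outside S phase too, was at -0.19 and -0.05. The signal of H1-6 lay at percentile 7.6 of all genes and that of H1-7 and H1-8 at 47.9 and 46.5.

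**Figure D3:**
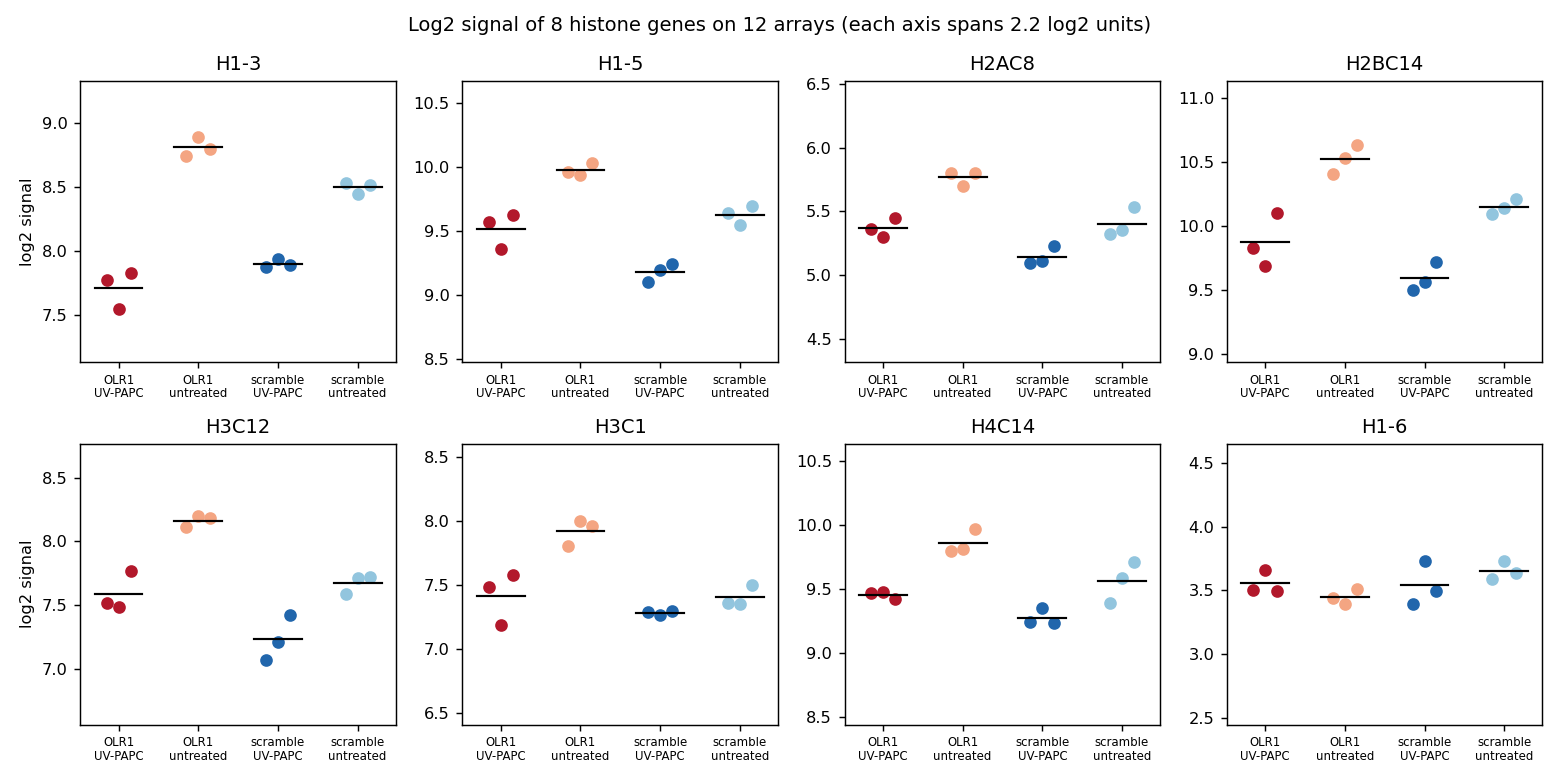
Log2 signal of 8 histone genes on the 12 arrays (points) with the group means (lines), where each vertical axis spans the same number of log2 units. H1-3, H1-5, H2BC14 and H3C12 are lower with UV-PAPC on every array within each siRNA, and H1-6 is near 3.5 in all 4 groups.

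Among the H2B genes H2BC14 had 9.83, 9.68 and 10.10 with UV-PAPC and 10.41, 10.53 and 10.63 untreated in OLR1 siRNA cells, and 9.50, 9.56 and 9.72 with UV-PAPC and 10.10, 10.14 and 10.21 untreated in scramble siRNA cells. The UV-PAPC arrays were the lower ones under both siRNAs, and the log2 differences were -0.65 (SE 0.10, limma adjusted p = 0.000436) and -0.56 (SE 0.10, adjusted p = 0.00176). H2BC9, H2BC10 and H2BC7 also fell with OLR1 siRNA (-0.44, -0.42 and -0.41) and were at -0.28, -0.26 and -0.22 with scramble siRNA, where they did not pass. H2BC21 was the H2B gene that fell with scramble siRNA (-0.31, adjusted p = 0.0445) and not with OLR1 siRNA (-0.21, adjusted p = 0.198). Its fall passed in 10 of 20 alternatives and not over all entries. The 2 brighter probe sets that H2BC21 shares with other genes had -0.15 and -0.07 with scramble siRNA (limma adjusted p = 0.466 and 0.664 over all entries). With OLR1 siRNA they had -0.23 and -0.13, and did not pass. H2BC12 and H2BC3 had the highest values of the class with OLR1 siRNA, 0.15 and 0.11, and neither passed. A brighter probe set that H2BC12 shares with H2BC5, H2BC12L and H2BC17 had the other sign there (-0.29, limma adjusted p = 0.07 over all entries). H2BC1, a testis H2B, was at 0.02 and 0.09.

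The H2A genes H2AC4, H2AC8, H2AC6 and H2AC20 fell with OLR1 siRNA. H2AC8 had 5.36, 5.30 and 5.45 with UV-PAPC and 5.80, 5.69 and 5.80 untreated with OLR1 siRNA, and 5.09, 5.11 and 5.23 with UV-PAPC and 5.32, 5.35 and 5.53 untreated with scramble siRNA. The arrays did not overlap within either siRNA, and H2AC8 fell under both (-0.40, adjusted p = 0.00316, with OLR1 siRNA and -0.26, adjusted p = 0.0465, with scramble siRNA). H2AC4, H2AC6 and H2AC20 had log2 differences of -0.43, -0.33 and -0.32 with OLR1 siRNA and were at -0.21, -0.20 and -0.11 with scramble siRNA. H2AC1, a testis H2A at percentile 8.7 of signal, had the highest value of all members with OLR1 siRNA, 0.21 (adjusted p = 0.341), and was at -0.10 with scramble siRNA.

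Among the 8 H3 genes, 6 fell with OLR1 siRNA. H3C12 had 7.52, 7.48 and 7.77 with UV-PAPC and 8.11, 8.20 and 8.18 untreated with OLR1 siRNA, and 7.07, 7.21 and 7.42 with UV-PAPC and 7.59, 7.71 and 7.72 untreated with scramble siRNA. Its UV-PAPC arrays lay below the untreated ones under both siRNAs, with log2 differences of -0.57 (limma adjusted p = 0.000942) and -0.44 (adjusted p = 0.00721). H3C1 had 7.48, 7.19 and 7.58 with UV-PAPC and 7.80, 8.0 and 7.96 untreated with OLR1 siRNA, a log2 difference of -0.51 (adjusted p = 0.00238). With scramble siRNA it had 7.28, 7.26 and 7.29 with UV-PAPC and 7.36, 7.35 and 7.50 untreated, groups that did not overlap and a log2 difference of -0.13 (adjusted p = 0.515). H3C10, H3C7, H3C11 and H3C8 fell with OLR1 siRNA (-0.48, -0.48, -0.39 and -0.38) and were between -0.18 and -0.26 with scramble siRNA, where H3C12 alone passed. H3C2 and H3C3 did not pass with OLR1 siRNA, at -0.27 and -0.07.

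The H4 genes encode the core histone that pairs with H3. H4C14, whose values H4C15 shares, had 9.47, 9.47 and 9.42 with UV-PAPC and 9.80, 9.82 and 9.97 untreated with OLR1 siRNA, and 9.24, 9.35 and 9.23 with UV-PAPC and 9.39, 9.58 and 9.71 untreated with scramble siRNA. Its arrays did not overlap within either siRNA, and its log2 differences were -0.41 (adjusted p = 0.00518) and -0.29 (adjusted p = 0.0425). The 2 probe sets that read H4C14 and H4C15 together, which have the same values, disagreed with this: they were at 0.14 and 0.01 (adjusted p = 0.56 and 0.976 over all entries), so the fall of these genes rests on 1 of 2 measurements. H4C4 (-0.46) and H4C16 (-0.41), the one at percentile 84.3 and the other at percentile 10.8 of signal, fell with OLR1 siRNA, and with scramble siRNA they were at -0.34 and -0.17. H4C3, H4C13 and H4C2, the members of the class with the highest signals, were between -0.17 and -0.29 with OLR1 siRNA and did not pass. H4C1 had 0.05 with OLR1 siRNA and 0.22 with scramble siRNA (adjusted p = 0.122).

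The next comparisons were OLR1 siRNA against scramble siRNA. In cells with UV-PAPC 3 of 60 members rose with OLR1 siRNA and 0 fell, where 7.94% of all genes rose. This count depends on the processing: 11 members rose with arrays centred on their medians and 21 with array weights. Over all genes 2510 and 2839 were called in either direction in these settings, against 2302 in the main fit. The 3 members were H1-5 (0.34, adjusted p = 0.00943), H3C12 (0.36, adjusted p = 0.0201) and H2AC12 (0.33, adjusted p = 0.0469), which also rose in untreated cells. The median was 0.14, against -0.01 over all genes, and 48 members were positive. It was 0.07 without the third OLR1 siRNA array with UV-PAPC and 0.09 without the first scramble array with UV-PAPC. OLR1 siRNA arrays lay above scramble arrays in 9 members, where this held for 16.6% of all genes. The count was 8 without the third and 1 without the first or the second scramble array with UV-PAPC, and 6 without the second OLR1 siRNA array with UV-PAPC. H1-5 was called in all 21 alternatives in which it was tested, H3C12 in 16 and H2AC12 in 9.

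In untreated cells 23 of 60 members rose with OLR1 siRNA and 0 fell, where 5.29% of all genes rose. They were 2 of 9 H1, 7 of 14 H2A, 3 of 16 H2B, 7 of 8 H3 and 4 of 13 H4 genes. H3C1 rose 1.43-fold (log2 difference 0.52, SE 0.09, limma adjusted p = 0.00173), and H2AC14, H2AC4, H3C12 and H2AC12 lay between 0.47 and 0.51. The median over members was 0.26, against -0.00 over all genes, with 52 of 60 positive. The OLR1 siRNA arrays lay above the scramble arrays in 39 members, where this held for 15% of all genes. The count was 15 without the second untreated scramble array or without the third untreated OLR1 siRNA array.

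The comparisons at each treatment share the untreated or the UV-PAPC arrays with the responses described above, so their values are set side by side without a test. The values of H1-5, given above, were higher with OLR1 siRNA on every array in both treatments. H3C12 likewise did not overlap between siRNAs, with log2 differences of 0.36 in UV-PAPC cells and 0.49 in untreated cells. H1-3 had -0.19 (adjusted p = 0.123) with UV-PAPC, where its OLR1 siRNA arrays lay below the scramble arrays, and rose by 0.31 (adjusted p = 0.0158) in untreated cells, where they lay above. H3C1 had 0.14 with UV-PAPC and H3C7, H3C10 and H3C2, which rose by 0.44, 0.45 and 0.39 in untreated cells, had 0.14, 0.22 and 0.19. H2AC8 and H2AC4 had 0.22 and 0.28 with UV-PAPC and rose by 0.36 and 0.49 untreated.

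**Figure D4:**
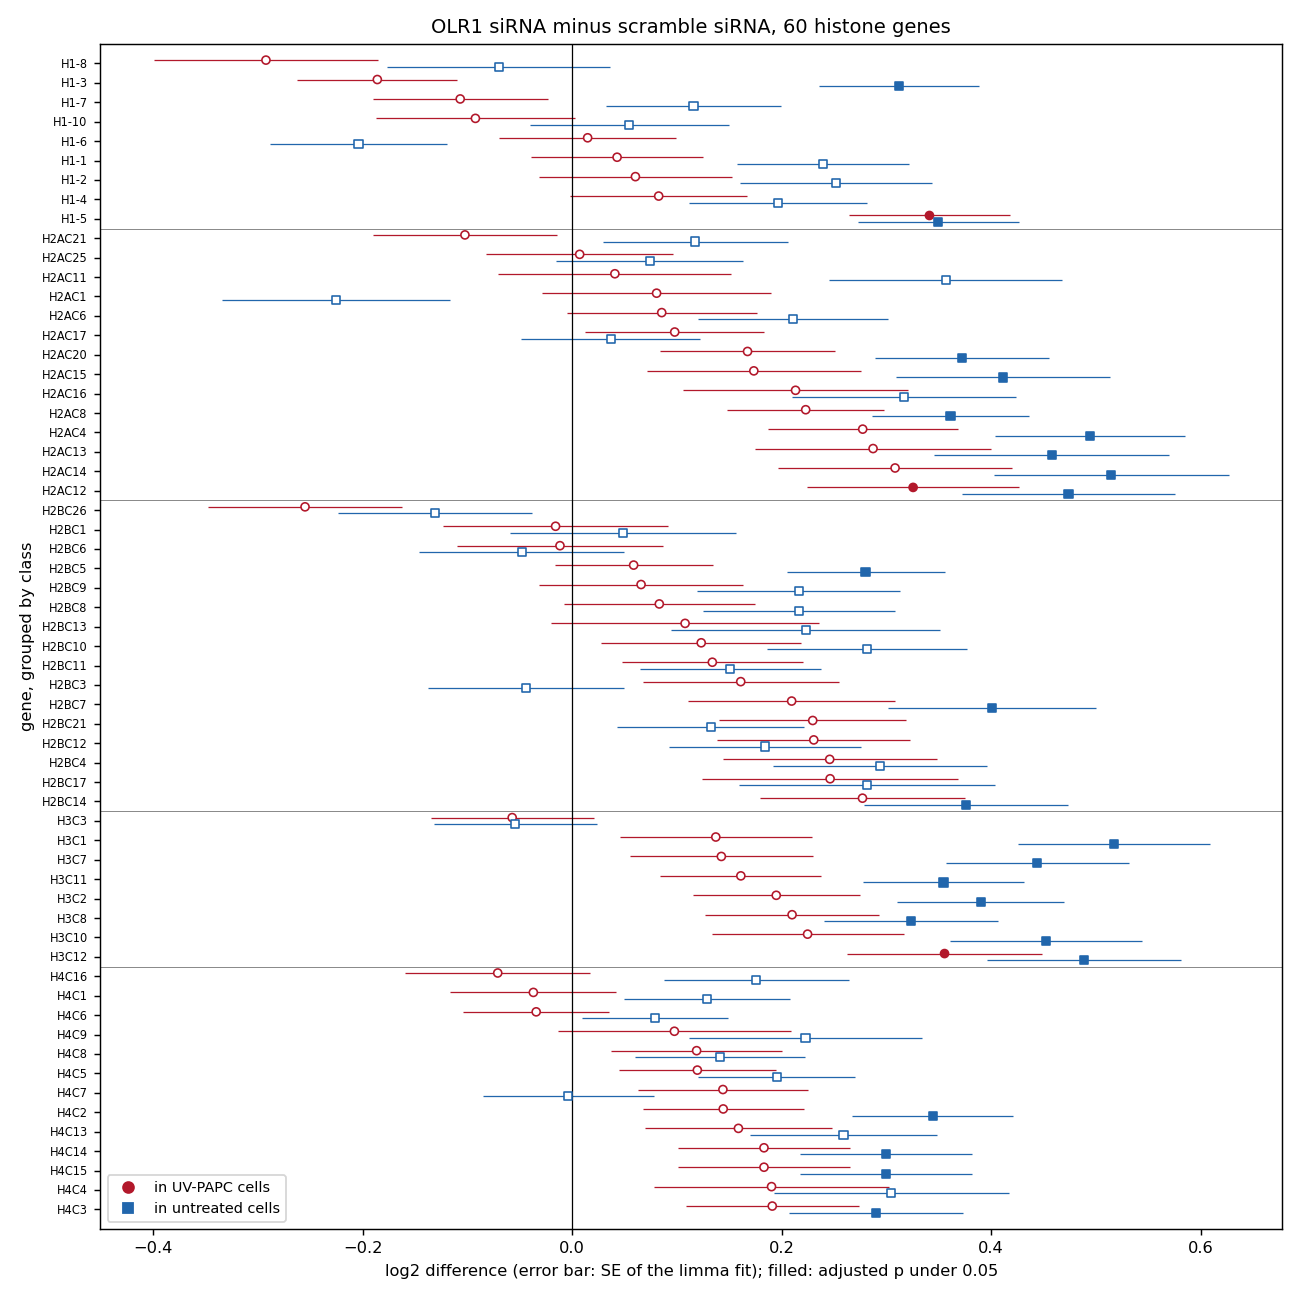
Log2 difference, OLR1 siRNA minus scramble siRNA, of each of 60 histone genes in UV-PAPC cells (red circles) and in untreated cells (blue squares). Bars are the standard error of the limma fit and filled points have an adjusted p under 0.05, and 3 red and 23 blue points are filled, all of them right of zero.

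H2AC12 had 7.99, 7.84 and 8.19 with UV-PAPC and OLR1 siRNA, against 7.54, 7.61 and 7.90 with UV-PAPC and scramble siRNA. These groups overlapped, since the third scramble array lay above the second OLR1 siRNA array. In untreated cells it had 8.33, 8.45 and 8.26 with OLR1 siRNA and 7.77, 7.91 and 7.94 with scramble siRNA, without overlap. H2AC14 had 6.03, 5.98 and 5.94 in untreated OLR1 siRNA cells and 5.46, 5.66 and 5.29 in untreated scramble cells, and its difference of 0.51 had an adjusted p = 0.00761. H2AC4 had 8.83, 8.86 and 9.09 against 8.34, 8.51 and 8.44 in the same groups. In both genes every untreated OLR1 siRNA array was the higher.

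The lowest values were as follows. In untreated cells H2AC1 (-0.23), H1-6 (-0.20) and H2BC26 (-0.13), an H2B gene of chromosome 1, were the lowest, and in UV-PAPC cells H1-8 (-0.29), H2BC26 (-0.25) and H1-3. None of these passed, with adjusted p from 0.0821 to 0.446. Of H3 genes, H3C3 alone did not rise in untreated cells (-0.05), and its signal lay at percentile 19.4. Among the 30 members with the higher mean signals 17 rose in untreated cells and among the other 30, 6, with medians of 0.31 and 0.15. For the response to UV-PAPC with OLR1 siRNA the counts were 17 and 5 falls and the medians -0.37 and -0.17. What dim signal contributed to this was not tested.

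No difference between the responses to UV-PAPC passed. The response with OLR1 siRNA minus that with scramble siRNA was called for 0 of 60 members and 0% of all genes. At a limma unadjusted p under 0.05, 3 members and 1004 of all 18417 genes were counted. H1-3 had the lowest of these differences (-0.50, 95% CI -0.73 to -0.27, unadjusted p = 0.000302, adjusted p = 0.52). H3C1 had -0.38 (95% CI -0.65 to -0.11, adjusted p = 0.882), H3C7 -0.30 (95% CI -0.56 to -0.04) and H2AC11 -0.32 (95% CI -0.65 to 0.02). For H1-5 it was -0.01, with a 95% CI of -0.24 to 0.22. H2AC1 (0.31), H1-6 (0.22) and H2BC3 (0.21) had the highest values. The sign was negative in 52 members and in 8908 of all genes. The median over members was -0.13, against 0.01 over all genes, and it was -0.07 without the third and -0.20 without the first scramble UV-PAPC array, -0.20 without the third OLR1 siRNA array with UV-PAPC and -0.03 with array weights.

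The 9 head-to-head pairs could be read gene by gene. H2BC14 fell with UV-PAPC under both siRNAs, whereas H2AC14, its partner, was at -0.20 with OLR1 siRNA and 0.00 with scramble siRNA and did not pass. Both rose with OLR1 siRNA in untreated cells, by 0.38 for H2BC14 and 0.51 for H2AC14, and they were the only pair with 2 calls in any comparison. In the pair of H2AC8 and H2BC8, H2AC8 fell with UV-PAPC and H2BC8 was at -0.21 with OLR1 siRNA and -0.08 with scramble siRNA. In the pair of H2AC20 and H2BC21, H2AC20 fell with OLR1 siRNA alone and H2BC21 with scramble siRNA alone, which is no test of a difference. With OLR1 siRNA 5 pairs had no member that fell with UV-PAPC and 4 had 1.

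The genes that make and process histone RNA were read from a list of 31, of which 30 were measured. With UV-PAPC, 2 (6.67%) rose and 3 (10%) fell with OLR1 siRNA, and 1 (3.33%) rose and 2 (6.67%) fell with scramble siRNA. Over all genes 3.46% rose and 3.25% fell with OLR1 siRNA, and 2.67% rose and 4.64% fell with scramble siRNA. ZNF473, a zinc finger protein of the U7 processing complex, rose by 0.62 and 0.64. CCNE2 and CCNA2, the cyclins of S phase entry and progress, fell with OLR1 siRNA (-0.36 and -0.31) and with scramble siRNA (-0.67 and -0.37), and LSM11, a U7 subunit, fell with OLR1 siRNA (-0.44). With OLR1 siRNA against scramble 7.94% of all genes rose in UV-PAPC cells and 5.29% in untreated cells. Of the 30 listed genes 14 rose in UV-PAPC cells and 12 in untreated cells, with 0 falls. Among them were CCNE2 (1.12 and 0.80), COIL, the scaffold of Cajal bodies (0.45 and 0.61), NFYB, a subunit of the CCAAT-binding factor (0.47 in each), and CASP8AP2, the processing factor FLASH (0.62 and 0.46). NPAT, the coactivator of histone gene transcription, and SLBP, which binds the stem-loop, were not named for their size but for their role. NPAT rose by 0.41 and 0.33 with OLR1 siRNA and SLBP by 0.29 and 0.33, and with UV-PAPC NPAT was at 0.08 and 0.00 and SLBP at 0.12 and 0.16.

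Histone chaperones, which carry histones to DNA, gave 2 rises and 1 fall with UV-PAPC and OLR1 siRNA and 1 rise and 1 fall with scramble siRNA, of 28 measured. These were 7.14% and 3.57% with OLR1 siRNA, where 3.46% of all genes rose and 3.25% fell. With scramble siRNA they were 3.57% each, near the 2.67% and 4.64% of all genes. ASF1A, a chaperone of H3 and H4, rose by 0.71 and 0.53, and HJURP, the chaperone of the centromere histone, fell (-0.25 and -0.34). With OLR1 siRNA 9 of 28 rose in UV-PAPC cells and 7 in untreated cells, including HJURP, the H2A.Z chaperone ANP32E, NASP and ASF1B. Over all genes 7.94% and 5.29% rose in these comparisons. Of 13 measured histone genes outside the member rule, most of them made throughout the cell cycle, 0 passed with UV-PAPC and OLR1 siRNA, and H2AX, the variant phosphorylated at DNA breaks, rose with scramble siRNA (0.29, adjusted p = 0.0157). With OLR1 siRNA H2AZ1, an H2A.Z gene, rose by 0.23 in UV-PAPC cells and 0.24 in untreated cells, and H3-3B, an H3.3 gene, by 0.33 in UV-PAPC cells. In all, 3 of the 13 rose and 1, H2BW2 (-0.29), fell in UV-PAPC cells, and 1 rose and 0 fell in untreated cells. Over all genes 7.94% rose and 4.56% fell in UV-PAPC cells, and 5.29% rose and 4.42% fell in untreated cells.

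**Figure D5:**
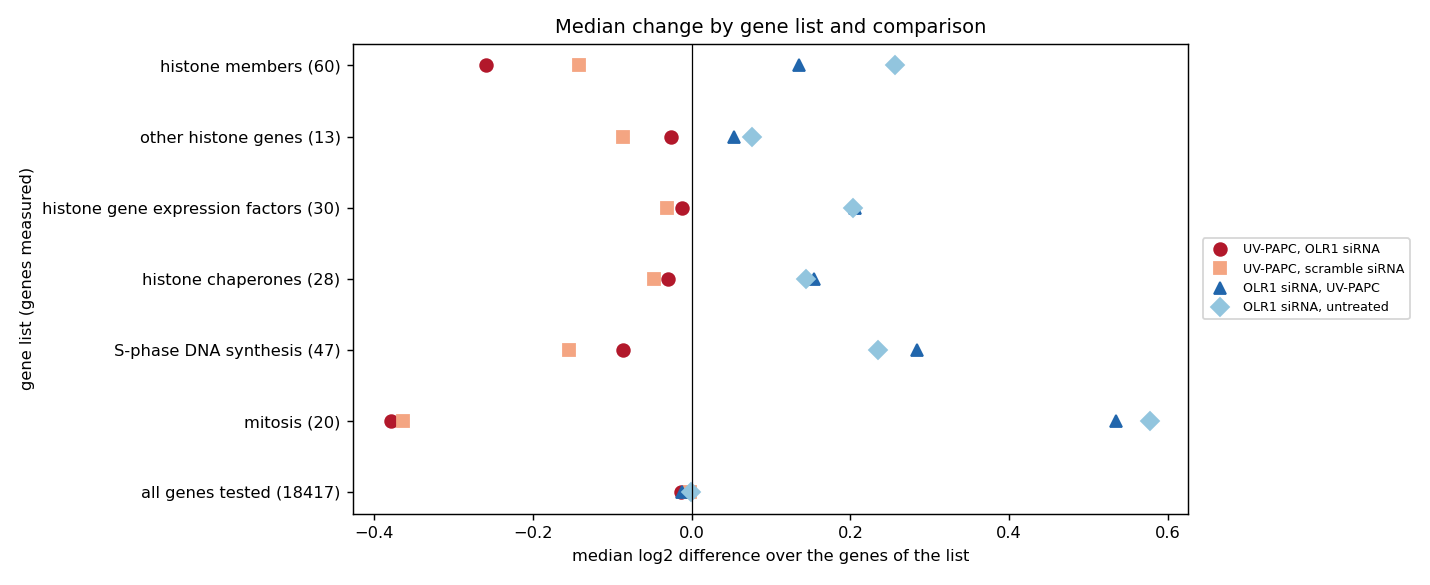
Median log2 difference over the genes of each list in the UV-PAPC comparisons (red circles, OLR1 siRNA, and orange squares, scramble siRNA) and in the OLR1 siRNA comparisons (blue triangles, UV-PAPC cells, and light blue diamonds, untreated cells). The 60 histone members lie at -0.26 and -0.14 with UV-PAPC, where the 30 factors of histone gene expression lie near zero.

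Genes of DNA synthesis and of mitosis were set beside the histone members. Of 47 measured S-phase genes 3 fell with UV-PAPC and OLR1 siRNA (median -0.09) and 8 with scramble siRNA (median -0.15), among them CLSPN, a replication checkpoint mediator (-0.31 and -0.37). Over all genes 3.25% fell with UV-PAPC and OLR1 siRNA and 4.64% with scramble siRNA. With OLR1 siRNA against scramble 32 of the 47 S-phase genes rose in UV-PAPC cells (median 0.28) and 22 in untreated cells (median 0.23). Over all genes 7.94% rose in UV-PAPC cells and 5.29% in untreated cells. Of 20 mitosis genes 13 fell with UV-PAPC and OLR1 siRNA and 16 with scramble siRNA, and with OLR1 siRNA 19 rose in UV-PAPC cells and 16 in untreated cells. TOP2A, which untangles DNA before division, had -0.65 and -0.84 with UV-PAPC and 1.08 and 0.89 with OLR1 siRNA, each past the threshold. Beside these, the histone members had medians of -0.26 with UV-PAPC and OLR1 siRNA and of 0.14 for OLR1 siRNA in UV-PAPC cells. The difference between the lists was not tested.

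The third scramble UV-PAPC array, the highest of its group for the histone genes, was the lowest for the other cell cycle lists. Its median deviation was -0.25 for S-phase genes, where the other arrays of the group had -0.15 and -0.17, and -0.54 for mitosis genes, where they had -0.48 and -0.37. For 192 small nucleolar and Cajal body RNA genes, whose transcripts also lack poly(A) tails, it had 0.05 against -0.06 and -0.04, and the third OLR1 siRNA array with UV-PAPC had 0.08 against 0.05 and 0.03. The third array was the highest for these RNA genes in the untreated groups too. It had 0.03 against -0.02 and -0.02 with OLR1 siRNA, and -0.02 against -0.06 and -0.03 with scramble siRNA. Their part in the histone values was not tested. Without the third UV-PAPC array of its own siRNA the histone median was -0.31 with OLR1 siRNA and -0.21 with scramble siRNA. CDH5, 1 of 4 endothelial markers, rose with OLR1 siRNA by 0.50 in UV-PAPC cells and 0.65 in untreated cells, and 0 of 4 leukocyte, 0 of 5 fibroblast and 0 of 3 melanocyte markers passed in any of the comparisons. Of 10 sebocyte markers PLIN2 rose and PPARG fell with UV-PAPC under both siRNAs, MUC1 fell with OLR1 siRNA, and 0 passed for OLR1 siRNA against scramble. Their part in the histone values was not tested.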

How the data were processed

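RNA of 12 cell samples (100 ng each, per the labels) was hybridised, and the groups come from the sample titles. The authors deposited log2 signals per probe set. Their processing notes name RMA and Affymetrix Expression Console 1.3.1.187, without settings, and the sources used here do not give the exposure time. RMA makes large differences smaller. Of 33297 table entries 19460 carried 1 symbol, 1754 several and 12083 none. Group means were fitted with limma 3.58.1 in R 4.3.3 to 18417 genes (8 residual and 7.66 prior degrees of freedom), two-sided, with Benjamini-Hochberg adjustment over all genes at 0.05. The fit was tested on simulated data. Whether replicates were separate cultures is unstated, so p-values reflect only the spread of these samples, possibly a technical one.

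The members and lists were chosen with earlier results of these data known. Named were up to 8 members with the lowest p among those past the threshold and the 3 highest and 3 lowest in each comparison, the members with the highest and lowest signal of each class, and up to 6 genes past the threshold per other list. H1-1, H1-10, H2AC11, H2BC1, H4C2, H4C4, H4C13, H4C16, head-to-head partners, further members that passed, NPAT and SLBP were named after their values were seen. Promoters are RefSeq windows on GRCh38.p14, matched by symbol for 55 of 60 members, the first listed where 3 genes had several. Alternatives comprised eBayes with trend and robust, array weights, genes above the median signal, the mean of probe sets, all entries, centred arrays, repeated quantile normalization, 6 arrays alone, a replicate block, each array left out, and, chosen after seeing the data, H4C14 and H4C15 counted once. Plots used matplotlib 3.10.9 and Python 3.11.15.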

Additional observations from a re-analysis of the deposited data

How the results depend on the processing

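Of the members that passed, 14 of 22 falls with UV-PAPC and OLR1 siRNA, 4 of 8 with scramble siRNA (H1-3, H1-5, H2BC14 and H3C12), 1 of 3 rises with OLR1 siRNA in UV-PAPC cells (H1-5) and 13 of 23 in untreated cells passed in every alternative that tested them. No median, and none of the member differences that were recomputed, changed sign. With UV-PAPC and scramble siRNA 18 members fell with array weights and 4 with all table entries tested. In these settings 1842 genes and 1167 entries were called in either direction, against 1347 genes in the main fit. For OLR1 siRNA in UV-PAPC cells, where the count was 3, it was 6 with trend and robust eBayes, 21 with array weights, 5 among genes above the median signal, 1 with all entries, 11 with centred arrays and 1 with the 6 arrays alone. All calls in these settings, in the same order, were 2777, 2839, 2759, 2095, 2510 and 1599, against 2302 in the main fit. For OLR1 siRNA in untreated cells 14 rose with all entries, where 1654 entries were called against 1789 genes in the main fit. The median difference of responses, -0.125, was -0.0342 with array weights. Leaving out each array gave 865 to 1397 and 868 to 1340 calls over all genes with UV-PAPC under OLR1 and scramble siRNA. For OLR1 siRNA in UV-PAPC and untreated cells it gave 1267 to 2254 and 1101 to 2055. Among the members it gave 14 to 28 and 4 to 10 falls with UV-PAPC under OLR1 and scramble siRNA. It gave 1 to 8 and 15 to 28 member calls for OLR1 siRNA in UV-PAPC and untreated cells, and 0 for the difference of responses. All of these calls had the direction of the main calls of their comparison, except that of H2BC26. It was negative but not called for OLR1 siRNA in UV-PAPC cells in the main fit (-0.25). There it fell without the third OLR1 siRNA array with UV-PAPC and with the replicate block. The causes were not tested. With all entries more features were both fitted and tested, and these were not told apart. With H4C14 and H4C15 counted once the counts, in the same order, were 21, 7, 3 and 22. The labels do not say whether the replicate numbers pair the samples, and weak correlations over all genes cannot settle it. The 18 pairs with the same number had correlations of deviations from -0.22 to 0.26, 6 of them over 0.1. The 36 pairs with different numbers had -0.26 to 0.27, 8 of them over 0.1. Of 12 arrays 3 correlated best with their own number. For the histone members, in contrast, array 3 had the highest median of its group in all 4 groups. The same held for the small nucleolar and Cajal body RNA genes. With the number as a replicate block the counts were 28 and 9 falls, 8 calls (7 rises and 1 fall), 26 rises and 0. The number of arrays, and signals near the lowest for the testis genes, limit what could be seen.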

Other observations

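A further 20 probe sets read histone genes together with others. Among them the 2 probe sets of H2AC18, H2AC19, H2AC20 and H2AC21, which have the same values, fell with UV-PAPC and OLR1 siRNA (log2 difference -0.27, limma adjusted p = 0.0399 over all entries) and were at -0.12 with scramble siRNA. The probe set of H3C4 and H2AC7 fell with UV-PAPC and OLR1 siRNA (-0.46, adjusted p = 0.0198), and that of H3C10 and H2AC13 fell in the same comparison (-0.51, adjusted p = 0.011) and rose by 0.49 (adjusted p = 0.0117) with OLR1 siRNA in untreated cells. The probe set of H2BC5, H2BC12, H2BC12L and H2BC17 rose by 0.36 (adjusted p = 0.0196) in untreated cells. The probe sets of H3C13, H3C14 and H3C15, H3 genes of chromosome 1, lay between -0.14 and -0.19 with UV-PAPC and OLR1 siRNA and did not pass. The 2 probe sets of H4C14 and H4C15 together were at 0.14 and 0.01 with UV-PAPC under OLR1 and scramble siRNA. They were at -0.04 for OLR1 siRNA in untreated cells, and did not pass over all entries. The probe sets of each gene alone passed in these comparisons in the main fit over genes. Over all entries they passed with UV-PAPC and OLR1 siRNA alone. There they did not pass with UV-PAPC and scramble siRNA or for OLR1 siRNA in untreated cells. A probe set of H2BC18 and the pseudogene FCGR1BP went the other way and rose by 0.76 and 0.71 with UV-PAPC under OLR1 and scramble siRNA. With UV-PAPC and OLR1 siRNA 2 probe sets of H2BC18 and H2BP1 were at -0.09 and 0.01. The probe set of H2BC18, H2BP1 and H2BC21 was at -0.13 there.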
